A study of Mus musculus with 5 samples.

Results

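The mitochondrial carrier family, gene names Slc25a1 and onwards, was described in cultured mouse optic nerves that had been exposed to a low or a high dose of the PI3K inhibitor LY294002. Members were taken by symbol alone, as every gene that the platform annotation calls Slc25a followed by a number. This gave 44 of the 18193 genes named by probe sets of 1 gene, with 93 probe sets between them. A probe set is a group of short oligonucleotides on the array that report on 1 transcript, and 21 of the 44 genes had only 1. A further probe set names Slc25a37 together with another gene and was not used.

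Optic nerves of C57BL/6 mice aged P35 to P45 were taken out together with the retina. According to the paper they were then cleaned of arachnoid and of peripheral or CNS tissue still attached. They were kept in organotypic culture for 3 days, and their RNA was measured on Affymetrix mouse genome arrays. There were 3 arrays for L-LY29, labelled 0.5 µM, and 2 for H-LY29, labelled 50 µM. All of the nerves were cultured with the inhibitor, none of the arrays used here is a control, and the labels name no transgene or deletion. The paper gives a higher dose for L-LY29 in nerves of this age than the labels do, and the labels spell the compound both LY294002 (titles) and LY295002 (treatment). Neither point was settled here. Values are log2 signals as deposited, and H-LY29 was subtracted from L-LY29 throughout, so that a positive one means a higher signal in L-LY29. Which nerves or mice went onto which array is not stated in the sources read, so p-values measure only the spread between arrays, which may be technical.

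Carriers of this family sit in the inner mitochondrial membrane, with a few in the peroxisomal or the outer mitochondrial membrane, and exchange nucleotides, phosphate, amino acids, organic acids, cofactors and metal ions between matrix and cytosol. ATP leaves the matrix through them, reducing equivalents enter by the aspartate and malate shuttles, and citrate for lipid synthesis goes out by the same family. In white matter, where oligodendrocytes make large amounts of lipid and axons depend on glial metabolism, these exchanges link the mitochondrion to myelin synthesis and energy supply.

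Arrays of 1 dose correlated at 0.990 to 0.995 over all probe sets and arrays of different doses at 0.882 to 0.892 (Pearson). Array medians lay at 5.33 to 5.35 in L-LY29 and at 5.54 to 5.56 in H-LY29. The bacterial poly-A control RNAs, which are added before labelling, averaged 10.22 on the L-LY29 arrays and 3.17 on the H-LY29 arrays (24 probe sets), so that a difference in handling and the dose cannot be told apart. Signal at the 3′ end exceeded that at the 5′ end of actin by 0.43 (L-LY29) and 0.92 (H-LY29), and that of Gapdh by -0.13 and 0.69. The oligodendrocyte markers, which define this tissue, averaged 12.92 to 13.01 on the L-LY29 arrays and 12.72 to 12.86 on the H-LY29 arrays, with 4 of 5 higher in L-LY29 and Mog lower (-1.13). The 5 fibroblast and meningeal markers were all lower in L-LY29 (8.08 to 8.76 against 11.24 to 11.60), 3 of 5 astrocyte markers were lower and 1 higher (9.01 to 9.67 against 10.79 to 10.90), and the 5 microglial markers were all higher (8.84 to 8.96 against 7.10 to 7.50). Markers of oligodendrocyte precursors were lower in 3 of 5 cases and higher in 1 (8.72 to 9.03 against 9.28 to 9.44), those of neurons higher in 4 of 5 and lower in 1 (7.84 to 7.90 against 6.59 to 6.75), and of 3 retinal markers 2 were lower and 1 higher (5.01 to 5.48 against 6.33 to 6.59). Of the 5 ocular surface epithelium markers 4 were higher, with means of 10.14, 7.56 and 8.56 against 4.40 and 3.93. The part of these cell types in the results on carriers was not tested. In bulk RNA, fewer cells of a type and less RNA per cell cannot be told apart.

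Of the 44 carriers 40 had a probe set that passed the filter on dim signals, a mean of 4.77 log2 units or more over the 5 arrays. Slc25a2 (an ornithine carrier), Slc25a31 (the ADP/ATP carrier best known from testis), Slc25a41 (an ATP-Mg/phosphate carrier) and Slc25a54 (substrate not settled) did not pass. With each gene represented by its brightest probe set, 19 carriers were lower in L-LY29, 12 were higher and 9 were not called (limma, two-sided, Benjamini-Hochberg adjusted p under 0.05 over 12935 genes). One of the 12, Slc25a48, passed the filter only through its L-LY29 arrays. The doses differed widely across the whole array, where 73.8% of all tested genes were called, 27.1% as higher and 46.6% as lower. The 77.5% of carriers called lay near that background. The median difference of the carriers was -0.20, against -0.26 over all tested genes, and the range ran from -2.44 to 1.95. Differences of at least 1 log2 unit were present in 15 carriers, or 37.5%, against 42% of all tested genes. All values of 1 dose lay outside those of the other in 33 of the 40 carriers, where this held for 83.1% of all tested genes.

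How many carriers were higher or lower rested on the scaling of the arrays, because it moved the whole distribution. Under quantile normalization the median of all tested genes went to 0.06, 52.1% of all calls were higher in place of 36.8%, and 16 carriers were higher and 12 lower. With equal array medians the median of all genes was -0.05, 47.2% of calls were higher, and 14 carriers were higher and 15 lower. A small difference therefore has no settled direction here. The calls of 12 carriers held under all 13 alternatives that had been listed with the design. Slc25a1, Slc25a17, Slc25a25, Slc25a30, Slc25a38 and Slc25a45 were higher each time, and Slc25a14, Slc25a20, Slc25a23, Slc25a24, Slc25a37 and Slc25a40 were lower each time. Slc25a34 was higher under each of the 12 of these that tested it. Of all these carriers only Slc25a20, Slc25a25 and Slc25a30 had more than 1 probe set past the filter. For the others, averaging a gene's probe sets could not change the difference, so that alternative does not bear on their calls.

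**Figure D1:**
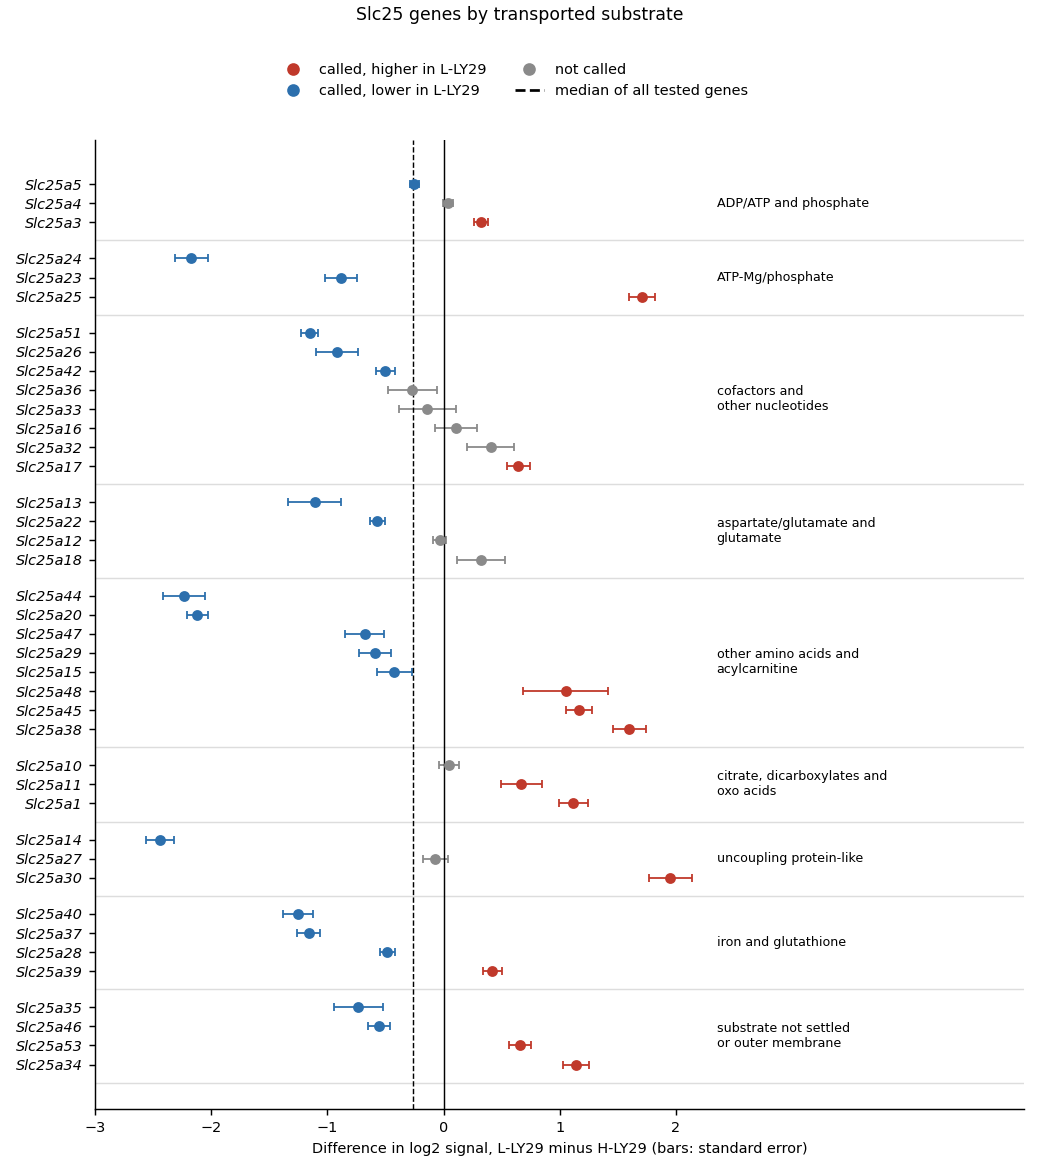
Difference in log2 signal, L-LY29 minus H-LY29, of the 40 tested Slc25 genes (points, with the standard error as bars), grouped by transported substrate, with colour for the limma call and a dashed line at the median of all tested genes, -0.26. Carriers of most substrates spread to both sides of 0, from Slc25a14 at -2.44 to Slc25a30 at 1.95.

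To set the members with the widest differences beside their upstream sequence, 250 bases before each RefSeq transcript start (GRCm38.p6) were searched on both strands for 5 short motifs. A window was found for 34 of the 44 carriers, 43 windows in all. The E-box CACGTG was present in 8 of these windows (7 genes) and in 6.02% of all 32851 windows, the cAMP response element TGACGTCA in 2 (Slc25a25 and Slc25a36) and in 1.55% of all, and the ETS motif CCGGAAG in 6 and in 6.91% of all. The CCAAT box was present in 20 windows (17 genes) and in 33.8% of all. The forkhead motif GTAAACA, bound by FoxO factors that PI3K signalling restrains, was in 0 member windows and in 3.17% of all. None of the motifs contains another, and a match describes the sequence only. The 4 windows below belong to the 2 highest and the 2 lowest carriers that held any of the motifs, each 5′ to 3′ on the gene's strand, with every match of the 5 motifs in capitals. Slc25a30 (chr14:75787038-75787287, minus strand) held a CCAAT box 52 bases before the start, and Slc25a25 (chr2:32424067-32424316, minus strand, 1 of 3 start windows and inside the span of the longer transcripts) held a cAMP response element 150 bases before it and a CCAAT box (as ATTGG) 78 bases before it. Slc25a14 (chrX:48623198-48623447, plus strand, 1 of 3 start windows) held an E-box at 54 bases and Slc25a20 (chr9:108661886-108662135, plus strand) an ETS motif at 79 bases.
Slc25a30: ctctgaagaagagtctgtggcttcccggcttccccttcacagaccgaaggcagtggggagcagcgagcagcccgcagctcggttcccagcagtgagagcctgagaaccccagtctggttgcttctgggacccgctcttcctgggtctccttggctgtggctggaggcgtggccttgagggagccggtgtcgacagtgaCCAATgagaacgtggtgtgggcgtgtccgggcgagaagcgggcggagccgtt
Slc25a25: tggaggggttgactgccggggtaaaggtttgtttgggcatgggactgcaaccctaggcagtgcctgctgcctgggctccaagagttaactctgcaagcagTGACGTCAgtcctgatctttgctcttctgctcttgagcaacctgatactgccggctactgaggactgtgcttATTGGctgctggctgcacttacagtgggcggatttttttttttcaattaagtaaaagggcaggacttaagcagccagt
Slc25a14: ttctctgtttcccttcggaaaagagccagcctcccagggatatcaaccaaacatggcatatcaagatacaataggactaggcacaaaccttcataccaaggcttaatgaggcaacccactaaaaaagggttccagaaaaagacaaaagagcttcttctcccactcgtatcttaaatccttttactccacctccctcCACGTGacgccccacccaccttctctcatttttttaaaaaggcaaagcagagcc
Slc25a20: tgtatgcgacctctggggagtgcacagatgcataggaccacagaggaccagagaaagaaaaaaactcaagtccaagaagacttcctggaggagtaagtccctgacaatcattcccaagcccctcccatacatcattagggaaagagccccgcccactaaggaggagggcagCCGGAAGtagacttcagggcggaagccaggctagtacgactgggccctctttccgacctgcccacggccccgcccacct

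The uncoupling protein-like carriers held both ends of the range. They are relatives of Ucp1 that are expressed in brain, and the transported substrates are only partly known. Slc25a30 (kidney mitochondrial carrier protein), whose CCAAT window is printed above, had signals of 10.37, 10.26 and 10.16 in L-LY29 and of 8.60 and 8.03 in H-LY29. Every L-LY29 array lay above both H-LY29 arrays, and the difference was 1.95 ± 0.19 (SE, n = 3 and 2; limma adjusted p = 5.00e-04), a 3.87-fold higher signal. Each of the 4 probe sets tested for it was higher, by 1.56 to 4.12. Slc25a14 (brain mitochondrial carrier protein, also UCP5), the gene of the E-box window, had 7.20, 7.47 and 7.54 in L-LY29 and 9.87 and 9.82 in H-LY29. The L-LY29 arrays were the low ones without overlap, with a difference of -2.44 ± 0.12 (SE; limma adjusted p = 8.64e-05), 5.43-fold lower, on its single probe set. Slc25a27 (UCP4) was not called on its brightest probe set (-0.07 ± 0.11, limma adjusted p = 0.579), which read 5.91 on 4 of the 5 arrays. Its other probe sets went both ways, by -2.78, by 0.39 and by 0.29, the last not called. The one at -2.78 passed the filter only through H-LY29 (L-LY29 mean 4.72), and without any 1 of the L-LY29 arrays it became the brightest.

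The calcium-regulated ATP-Mg/phosphate carriers, which set the adenine nucleotide pool of the matrix, were also split. Slc25a25, the gene of the cAMP response element window, had signals of 7.25, 7.25 and 7.41 in L-LY29 and of 5.68 and 5.51 in H-LY29. The L-LY29 arrays were higher without overlap, by 1.71 ± 0.11 (SE; limma adjusted p = 1.58e-04). Its second tested probe set was higher by 1.44, but passed the filter only through L-LY29 (H-LY29 mean 4.55) and had to differ to pass. Slc25a24 had 6.82, 6.88 and 7.22 in L-LY29 and 9.12 and 9.17 in H-LY29. It was thus the opposite of its paralog, with a difference of -2.17 ± 0.15 (SE; limma adjusted p = 1.72e-04). Slc25a23 had 8.02, 7.72 and 8.02 in L-LY29 and 8.92 and 8.70 in H-LY29, a difference of -0.88 ± 0.14 (SE; limma adjusted p = 0.00298). Of this class, 1 tested carrier was thus higher and 2 were lower.

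**Figure D2:**
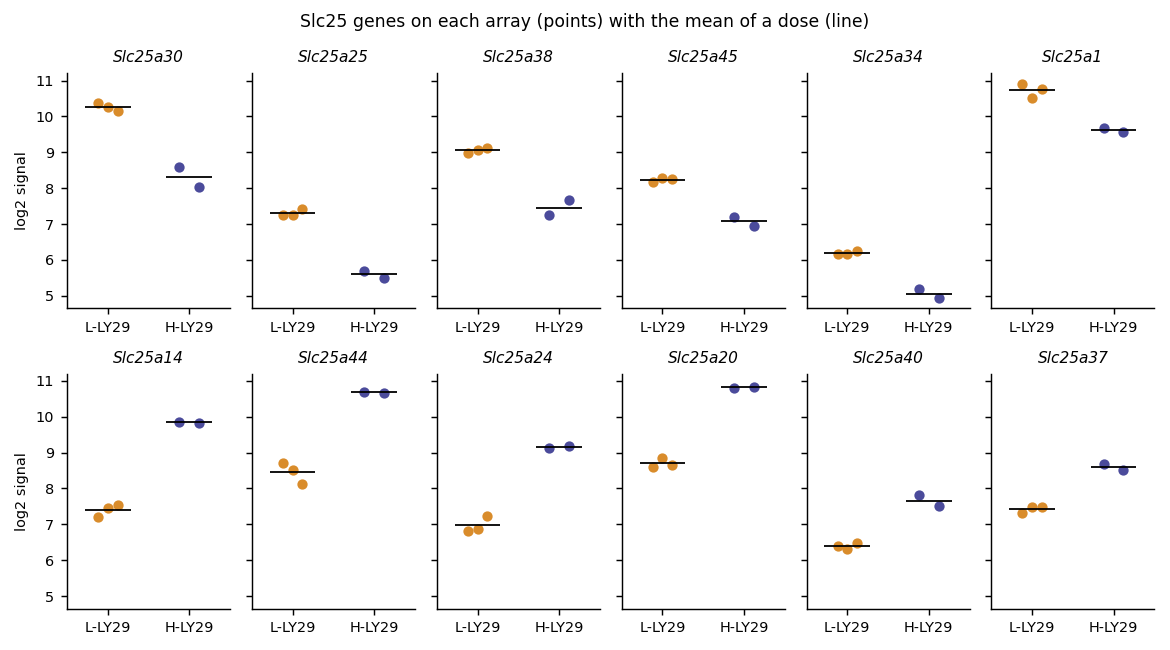
Log2 signal (vertical axis) of 12 Slc25 genes on each of the 3 L-LY29 and 2 H-LY29 arrays (points), with the mean of each dose as a line. The upper row holds the 6 highest carriers in L-LY29, such as Slc25a30, and the lower row the 6 lowest, such as Slc25a14. They were shown for the size of their difference, and in none of the 12 do the doses overlap, which held for 83.1% of all tested genes. Each gene is shown on its brightest probe set, and another probe set of Slc25a44 went the other way.

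The ADP/ATP carriers, which exchange matrix ATP for cytosolic ADP, and the phosphate carrier Slc25a3, which brings in phosphate for ATP synthesis, had differences from -0.25 to 0.32 on their brightest probe sets. Slc25a4 (ANT1, the heart and muscle type) read 12.52, 12.49 and 12.52 in L-LY29 and 12.52 and 12.42 in H-LY29. These values overlapped, and the difference of 0.04 ± 0.04 (SE; limma adjusted p = 0.417) was not called, though it was called without H-LY29 replicate 1 (0.086, limma adjusted p = 0.0212) and with equal array medians (0.25), and was -0.0074 without H-LY29 replicate 2. Of the 4 tested probe sets of Slc25a4, 1 was called higher (0.39) and 3 were not called, the brightest among them. Slc25a5 (ANT2, the proliferating-cell type) had 11.51, 11.56 and 11.56 against 11.81 and 11.78. The L-LY29 arrays were lower without overlap (-0.25 ± 0.04, SE; limma adjusted p = 0.00297), a call that ended with equal array medians (-0.04). Without L-LY29 replicate 1 or 3 another probe set became the brightest, and the difference was -0.86 or -0.90. Of the 8 tested probe sets of Slc25a5, 6 were lower, 1 was higher and 1 was not called, with differences from -2.20 to 0.77. These paralogs have similar sequences, and 6 of the 8 probe sets carry the _x_at suffix, which Affymetrix gives to probe sets that may also bind other transcripts, so that their values are uncertain. Slc25a3 had 11.80, 11.82 and 11.86 in L-LY29 and 11.59 and 11.42 in H-LY29. It was higher in L-LY29 by 0.32 ± 0.06 (SE; limma adjusted p = 0.00634) on this probe set and differed by -2.38 on its other, dimmer one.

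Of the 3 tested carriers of citrate, dicarboxylates and oxo acids, 2 were higher and 0 lower. Over all tested genes 27.1% were higher and 46.6% lower, and a class of 3 genes is too small to be set apart from that background. Slc25a1, which exports citrate for fatty acid and sterol synthesis, had signals of 10.91, 10.53 and 10.77 in L-LY29 and of 9.67 and 9.56 in H-LY29. The L-LY29 arrays were all higher, by 1.12 ± 0.12 (SE; limma adjusted p = 8.76e-04), or 2.17-fold. Slc25a11, the oxoglutarate/malate carrier of the malate-aspartate shuttle, read 8.81 on all 3 L-LY29 arrays and 7.86 and 8.43 on the H-LY29 arrays. It was higher by 0.67 ± 0.18 (SE; limma adjusted p = 0.0203), and the call ended when any 1 L-LY29 array was left out (adjusted p of 0.0593 to 0.0617, with the same difference). Without H-LY29 replicate 1 the difference was 0.38 and without H-LY29 replicate 2 it was 0.96, both called. The values of the 3 L-LY29 arrays were equal to the last deposited digit, so their spread of 0 cannot be read as replicate error. Slc25a10, the dicarboxylate carrier, was not called (0.05 ± 0.09, limma adjusted p = 0.640) and read 7.46 on 4 of the 5 arrays, but was called higher after quantile normalization (0.58).

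The aspartate/glutamate and glutamate carriers had 0 higher, 2 lower and 2 uncalled members. Slc25a12 (aralar), the aspartate/glutamate carrier of nervous tissue, read 9.11 on all 3 L-LY29 arrays and 9.11 and 9.18 in H-LY29. The difference of -0.03 ± 0.06 (SE) was not called (limma adjusted p = 0.607) and was 0.34 after quantile normalization, where it was called. Its dimmer probe sets went to -1.56 and 0.77. Slc25a13 (citrin), the liver-type paralog, had 5.53, 4.87 and 5.29 in L-LY29 and 6.21 and 6.48 in H-LY29. It was lower without overlap (-1.11 ± 0.22, SE; limma adjusted p = 0.00773), and the call ended without either H-LY29 array (adjusted p of 0.0560 and 0.0891). Slc25a22, a glutamate carrier, had 8.24, 8.22 and 8.24 against 8.83 and 8.77, a difference of -0.57 ± 0.06 (SE; limma adjusted p = 9.12e-04) that was no longer called after quantile normalization (-0.14). Slc25a18, the second glutamate carrier and one expressed in astrocytes, differed by 0.32 ± 0.21 (SE) and was not called (limma adjusted p = 0.218) until quantile normalization made it 0.78. Its L-LY29 replicate 1 read 7.05 where the other L-LY29 arrays read 6.48 and 6.49, and without it the difference was 0.13.

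Among the carriers listed under other amino acids and acylcarnitine, 3 were higher and 5 lower of the 8 tested. The list came from general knowledge, and the substrates of Slc25a47 and Slc25a48 were not checked here. Slc25a20, the carnitine/acylcarnitine carrier that brings fatty acids to beta-oxidation and the gene of the ETS window, had signals of 8.61, 8.85 and 8.66 in L-LY29 and of 10.81 and 10.84 in H-LY29. It was lower in L-LY29 without overlap, with a difference of -2.12 ± 0.09 (SE; limma adjusted p = 6.17e-05), a 4.34-fold lower signal. Its second probe set differed by -0.58. Slc25a38, a glycine carrier needed for haem synthesis, was the highest of the class, with 8.97, 9.07 and 9.13 in L-LY29 and 7.25 and 7.66 in H-LY29. The difference was 1.60 ± 0.14 (SE; limma adjusted p = 3.97e-04). Slc25a45 had 8.17, 8.29 and 8.27 against 7.21 and 6.94, also without overlap (1.16 ± 0.11, SE; limma adjusted p = 5.12e-04).

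Slc25a44, which carries branched-chain amino acids, had signals of 8.70, 8.53 and 8.12 in L-LY29 and of 10.70 and 10.67 in H-LY29 on its brightest probe set. This was a difference of -2.23 ± 0.18 (SE; limma adjusted p = 3.02e-04), and a second probe set differed by -1.17. The remaining one went the other way, with 7.19, 7.16 and 6.94 in L-LY29 and 3.06 and 2.92 in H-LY29. Its H-LY29 values lay near those of the trpn control probe sets (mean 2.76, highest probe set 2.89) and under the filter, so that it passed only through L-LY29 and the size of its difference, 4.11, is not settled. The direction of Slc25a44 therefore depended on the probe set. Slc25a29 (basic amino acids) differed by -0.59 on its brightest probe set (limma adjusted p = 0.0132), which read 6.65 on all L-LY29 arrays, and of its 5 probe sets 3 were lower and 1 higher. That call ended under both other scalings of the arrays (-0.05 and -0.38). Slc25a15, the ornithine carrier of the urea cycle, differed by -0.42 ± 0.15 (SE; limma adjusted p = 0.0486), near the threshold, and by 0.04 after quantile normalization. Its call was lost under 8 of 13 alternatives, among them each L-LY29 array left out, and the difference was -0.20 without H-LY29 replicate 1 and -0.65 without H-LY29 replicate 2. Slc25a47, best known from liver, differed by -0.68 ± 0.17 (SE; limma adjusted p = 0.0154), a call that ended after quantile normalization (-0.32), without L-LY29 replicate 3 (adjusted p = 0.0543) and without H-LY29 replicate 1 (adjusted p = 0.0922). Slc25a48 was dim and passed the filter only through L-LY29, with 5.93, 4.92 and 4.82 in L-LY29 and 4.17 and 4.18 in H-LY29. The difference of 1.05 ± 0.37 (SE; limma adjusted p = 0.0492) was carried most by L-LY29 replicate 1. That array also had the highest ocular surface epithelium mean, and a link between them was not tested. The call ended under 6 of the 11 alternatives that tested it, and without L-LY29 replicate 1 the gene did not pass the filter.

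Carriers of cofactors and of nucleotides other than ADP and ATP were called in 4 of 8 cases, with 1 higher and 3 lower. Slc25a51, the NAD carrier, had signals of 10.22, 10.14 and 10.18 in L-LY29 and of 11.24 and 11.43 in H-LY29 on its brightest probe set. That gave a difference of -1.15 ± 0.07 (SE; limma adjusted p = 1.49e-04). On a second bright probe set it had 10.73, 10.67 and 10.75 in L-LY29 and 9.46 and 9.61 in H-LY29, a difference of 1.18 the other way. Both differences were far outside the spread between arrays, so that the probe set alone set the direction. Slc25a26, which brings in S-adenosylmethionine, had 5.98, 6.04 and 6.32 against 6.82 and 7.24. Both its probe sets were lower, the brightest with a difference of -0.92 ± 0.18 (SE; limma adjusted p = 0.00709), and the call was lost after quantile normalization (-0.43) and without H-LY29 replicate 2 (-0.71, adjusted p = 0.0515). Slc25a17, a peroxisomal carrier of cofactors such as CoA, had 8.44, 8.44 and 8.52 against 7.94 and 7.71. It was higher without overlap, by 0.64 ± 0.10 (SE; limma adjusted p = 0.00282).

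Slc25a42, a CoA carrier, read 6.01 on all 3 L-LY29 arrays and 6.52 and 6.49 on the H-LY29 arrays. Its difference of -0.50 (limma adjusted p = 0.00362) was no longer called after quantile normalization (-0.06). Slc25a16, also linked to CoA, differed by 0.11, Slc25a32 (folate and FAD) by 0.40, and the pyrimidine nucleotide carriers Slc25a33 and Slc25a36 by -0.14 and -0.27. None of these 4 was called on its brightest probe set (limma adjusted p of 0.616, 0.135, 0.623 and 0.298). Slc25a36 had a wide spread in H-LY29, at 10.36 and 11.07, and without H-LY29 replicate 1 its difference was -0.62 and called, where it was 0.09 without H-LY29 replicate 2. Under quantile normalization Slc25a16 (0.63) and Slc25a32 (0.93) were called higher, and Slc25a32 also with equal medians (0.62) and without H-LY29 replicate 1 (0.72). Slc25a32 differed by 0.08 without H-LY29 replicate 2, and Slc25a16 by -0.03 without L-LY29 replicate 1. Slc25a33 differed by 0.08 without L-LY29 replicate 2. Dimmer probe sets of 2 of these genes were called. For Slc25a36 2 were lower (-0.56 and -2.23), the latter passing the filter only through H-LY29 (L-LY29 mean 3.99). With its probe sets averaged Slc25a36 differed by -1.02 and was called. For Slc25a32 the other tested probe set was lower (-0.67), against the direction of the brightest.

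Of the iron and glutathione carriers, 1 was higher and 3 were lower. Slc25a37 (mitoferrin-1), which supplies iron for haem and iron-sulphur clusters, had signals of 7.33, 7.49 and 7.50 in L-LY29 and of 8.67 and 8.52 in H-LY29. Slc25a28 (mitoferrin-2), its widely expressed paralog, had 8.73, 8.71 and 8.65 against 9.16 and 9.20. Both mitoferrins were lower in L-LY29 without overlap, Slc25a37 with a difference of -1.16 ± 0.10 (SE; limma adjusted p = 3.49e-04) and Slc25a28 with -0.49 ± 0.06 (SE; limma adjusted p = 0.00151), but Slc25a28 was no longer called after quantile normalization (-0.10). Slc25a40, a glutathione carrier, had 6.40, 6.32 and 6.49 in L-LY29 and 7.82 and 7.51 in H-LY29. It differed by -1.25 ± 0.13 (SE; limma adjusted p = 6.67e-04). Its paralog Slc25a39 was higher by 0.42 on the brightest probe set (limma adjusted p = 0.00709), but of 4 probe sets tested for it 2 were higher (0.42 and 0.44) and 2 were lower (-0.92 and -0.89). Leaving out any 1 L-LY29 array made a lower one the brightest.

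Carriers without a settled substrate and the outer-membrane member divided into 2 higher and 2 lower. Slc25a34 had signals of 6.18, 6.17 and 6.26 in L-LY29 and of 5.18 and 4.95 in H-LY29. It was higher without overlap, by 1.14 ± 0.11 (SE; limma adjusted p = 5.36e-04). Slc25a35 had 4.73, 4.91 and 5.11 against 5.38 and 5.92, a difference of -0.74 ± 0.21 (SE; limma adjusted p = 0.0258) that ended as a call with equal array medians (-0.52) and without L-LY29 replicate 1 or 2 or H-LY29 replicate 2 (-0.64, -0.73 and -0.46). Slc25a53 had 8.13, 8.23 and 8.13 against 7.60 and 7.41. It was higher by 0.66 ± 0.10 (SE; limma adjusted p = 0.00223), and its other probe set differed by -1.64. Slc25a46, which lies in the outer membrane and takes part in mitochondrial dynamics, differed by -0.56 (limma adjusted p = 0.00360) on 1 probe set and by 0.96 on the other, and both carry the same transcript accession in the annotation.

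Every probe set tested was then set beside the others of its gene. Of the 80 Slc25 probe sets that passed the filter, 6 had a mean under it in 1 dose, 1 each of Slc25a3, Slc25a25, Slc25a27, Slc25a36, Slc25a44 and Slc25a48, and had to differ to pass. Among the 80, 25 were higher in L-LY29, 38 lower and 17 not called, 78.8% in all (limma, adjusted over 23456 probe sets). Over all tested probe sets 72.8% were called, 29.0% as higher and 43.7% as lower, and the medians were -0.24 for the carriers and -0.20 for all. Among the 15 carriers with at least 2 called probe sets, 10 had calls in both directions, or 66.7%, against 43.3% of all 4197 such genes. They were Slc25a3, Slc25a5, Slc25a12, Slc25a27, Slc25a29, Slc25a39, Slc25a44, Slc25a46, Slc25a51 and Slc25a53, of which Slc25a3, Slc25a27 and Slc25a44 count here through such a probe set. The called probe sets of Slc25a20, Slc25a25, Slc25a26, Slc25a30 and Slc25a36 went 1 way. Of these, Slc25a25 and Slc25a36 also count here only through a probe set that had to differ to pass. The probe sets of a carrier spanned a median of 1.97 log2 units in their differences (19 genes), against 1.48 over 6103 genes. Pairs of called probe sets on the same accession went opposite ways in 2 of 7 cases in the family and in 31.6% of 2332 cases among all genes, and pairs on other accessions in 19 of 45 cases and in 36.7% of 7538. Many pairs share a gene, and these shares were not tested. The number of probe sets per gene, on which spans and calls in both directions depend, was not matched.

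**Figure D3:**
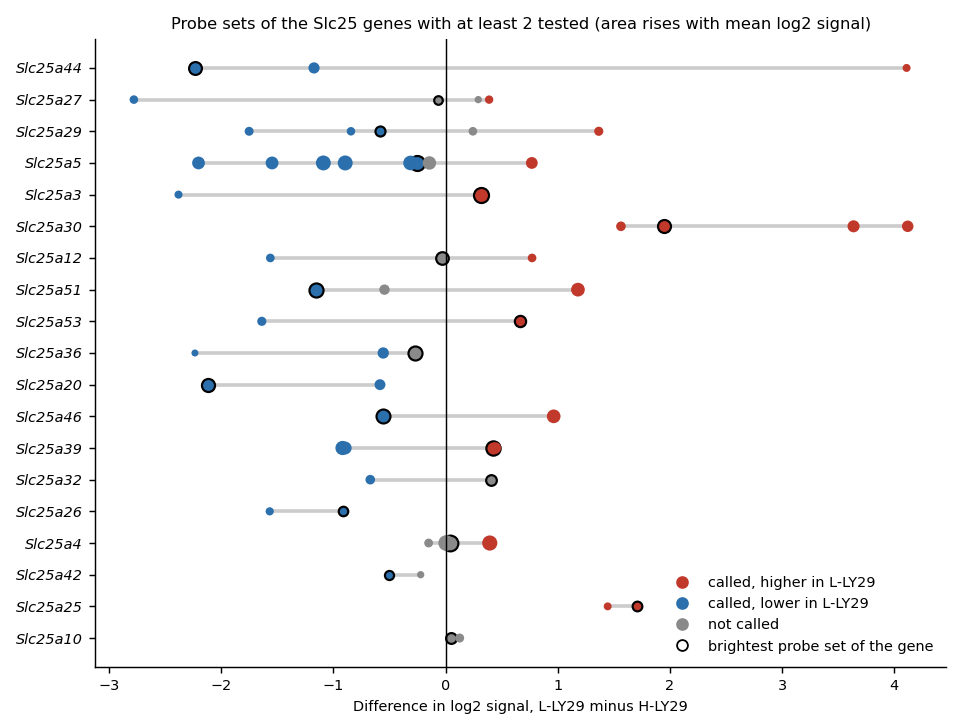
Difference in log2 signal, L-LY29 minus H-LY29, of every tested probe set (points) of the 19 Slc25 genes with at least 2, joined by a grey line, with colour for the limma call, area rising with mean signal and a black ring on the brightest. Slc25a44 has probe sets on both sides of 0, the one at 4.11 near background in H-LY29, whereas all 4 probe sets of Slc25a30 lie between 1.56 and 4.12.

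Equal deposited values were common on the whole array, and the family was near that share. Between 2 L-LY29 arrays, 18.2% to 19.9% of all 45101 probe sets had equal values, against 17.2% to 19.4% of the family's. Between the H-LY29 arrays it was 4.3% against 3.23%, and between arrays of different doses 7.11% to 7.42% against 4.3% to 9.68%. All 3 L-LY29 values were equal at 10 of the 93 probe sets, at least 2 of them at 31, and both H-LY29 values at 3. At 13 probe sets a value was shared by an L-LY29 and an H-LY29 array. Among the 40 probe sets that stood for genes, 4 had 3 equal L-LY29 values (Slc25a11, Slc25a12, Slc25a29 and Slc25a42), of which 3 were called, and 5 shared a value across the doses, of which 0 were called by limma.

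Genes that act beside the carriers were described from lists of 74 related genes, 64 of them tested. Of these 23 were higher, 27 lower and 14 not called, which is 78.1% beside 73.8% of all tested genes, with a median of -0.17. Enzymes of the malate-aspartate and glycerol phosphate shuttles had 0 higher and 4 lower of 6, among them the mitochondrial malate dehydrogenase Mdh2 (-0.39 ± 0.03, SE) and Gpd1 (-0.97 ± 0.12), beside the higher Slc25a11. Citrate synthase (Cs, -1.05 ± 0.07) and ATP citrate lyase (Acly, -1.34 ± 0.07) were lower where fatty acid synthase (Fasn, 1.32 ± 0.13) and malic enzyme (Me1, 0.75 ± 0.07) were higher, beside the higher citrate carrier Slc25a1. In the carnitine shuttle and beta-oxidation, 4 of 9 were higher, led by the carnitine acetyltransferase Crat (3.30 ± 0.20) and Acadm (1.84 ± 0.11), and 2 were lower, Cpt2 (-1.50 ± 0.10) and Cpt1c (-1.29 ± 0.09), as was the carrier Slc25a20. All of the genes named here with a difference passed the limma test, but Crat and Acly each had 1 probe set called higher and 1 called lower, so that their direction depended on the probe set. Cpt1a, counted among the 4 higher, had 1 probe set called higher and 2 called lower.

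Other transport steps of the mitochondrion were as mixed. Of 13 other inner-membrane transporters 3 were higher and 7 lower, with Sfxn3 (-2.68 ± 0.09, SE), a sideroflexin, and Abcb10 (-2.36 ± 0.06) lower, and Abcb8 (2.31 ± 0.10) and the pyruvate carrier subunit Mpc1 (1.17 ± 0.04) higher. The outer-membrane channel Vdac1 differed by -2.69 on its brightest probe set and was lower on all 4 called ones, where Vdac3 (0.40 ± 0.04) and the import subunits Tomm7 (1.01 ± 0.05) and Tomm20 (0.60 ± 0.06) were higher. The small TIM chaperones and the TIM22 complex insert carriers into the inner membrane, and 2 of their 9 genes were higher (Agk, 1.81 ± 0.15, and Timm10b, 0.99 ± 0.08) and 4 lower, among them Timm29 (-1.80 ± 0.08) and Timm8a1 (-1.06 ± 0.06). Of the 3 tested carrier relatives without an Slc25a symbol, Ucp3 (0.59 ± 0.10) and Mtch1 (0.57 ± 0.06) were higher. Mtch2 (-0.12 ± 0.05) was not called on its brightest probe set, though 2 of its probe sets were called lower. Of 11 genes of mitochondrial biogenesis and DNA 5 were higher and 5 lower, including the polymerase subunit Polg2 (1.54 ± 0.13), and the helicase Twnk (-1.51 ± 0.10), the polymerase Polg (-0.98 ± 0.10) and the coactivator Ppargc1a (-1.60 ± 0.17). Abcb8, Abcb10 and Timm8a1 each had 1 probe set called either way, and Timm10b and Tomm20 had 1 called lower and Polg 1 called higher against the direction given. Among the genes counted without a value, Nrf1, Gabpa, Tfam, Letm1, Ghitm, Tomm22 and Tomm70a also had probe sets called in both directions.

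**Figure D4:**
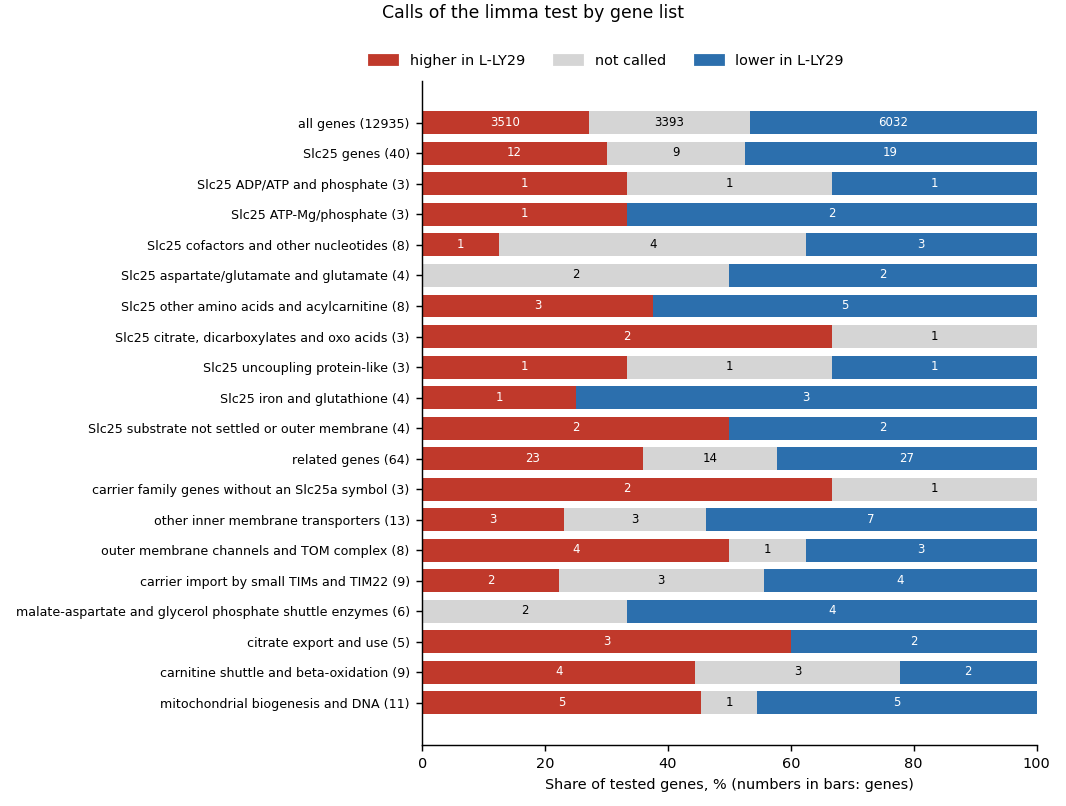
Share of tested genes called higher, not called or called lower in L-LY29 by limma (horizontal axis, %, with the numbers of genes in the bars), for all genes, the Slc25 genes, their substrate classes and 8 lists of related genes. The Slc25 genes (12 higher, 9 not called, 19 lower) divide much as all genes do, and classes of 3 or 4 genes move widely.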

How the data were processed

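RNA was measured on 5 Affymetrix mouse genome arrays, grouped by dose from their labels. According to the methods, the authors normalised signals with the MAS-5 algorithm in GeneSpring. What was deposited is a log2 signal for each of 45101 probe sets, and whether that algorithm made them was not settled here. Genes came from the platform annotation, dated several years before the study: 34945 probe sets name 1 gene, and 932 naming several genes, 9160 naming none and 64 controls were left out. Values were used as deposited. Probe sets with a mean under the 40th percentile were dropped, and the brightest one represented each gene. L-LY29 and H-LY29 were compared in R 4.3.3 with limma 3.58.1 (eBayes with an intensity trend after lmFit, two-sided), adjusted by Benjamini-Hochberg over all genes or all probe sets tested, with a threshold of 0.05. The script was tested on simulated data. Precision is limited by the number of arrays.

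The members, the substrate classes and the related lists, written from general knowledge, were chosen with earlier results of these data known. By rule, every carrier was named; values on each array were given for 7 carriers of the main shuttles and for up to 3 further called, non-overlapping genes per class, and some others were added after their values were seen. Related lists were named by smallest adjusted p, up to 4 genes each, of which some are left out. Alternatives were no filter, a 60th percentile filter, quantile normalization, equal array medians, a floor at the 10th percentile, the replicate number as a block, eBayes without the trend, all probe sets of a gene averaged and each array left out in turn. The second brightest probe set was added after seeing the data. Promoter windows are from RefSeq. None of the arrays used is a control, so that neither dose was compared with nerves kept without the inhibitor.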

Additional observations from a re-analysis of the deposited data

How the results depend on the processing

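The median difference of the carriers moved most. It was 0.0131 under quantile normalization (12 carriers lower), 0.0163 with equal array medians, -0.140 with the 60th percentile filter, -0.263 with the replicate block, -0.295 with a gene's probe sets averaged and -0.585 with the second brightest probe set, and -0.501 to -0.0428 with each array left out, the ends being without L-LY29 replicate 1 and without H-LY29 replicate 2. The median of the related genes was 0.110 under quantile normalization and 0.0455 with equal medians, and -0.175 to -0.0618 with an array left out, lowest without H-LY29 replicate 2 and highest without H-LY29 replicate 1. The median of the carriers' probe sets was -0.0135, -0.0247 and, without the filter, -0.151, and -0.263 to -0.119 with an array left out, highest without H-LY29 replicate 2. The second brightest probe set gave 5 carriers higher and 11 lower of 19, and 8 and 17 related genes. Quantile normalization turned Slc25a12 to 0.340 and Slc25a15 to 0.0397. The mean of probe sets turned Slc25a3 (-1.03), Slc25a39 (-0.238), Slc25a44 (0.235), Slc25a46 (0.203) and Slc25a53 (-0.490). The second brightest turned Slc25a3 (-2.38), Slc25a29 (1.37), Slc25a32 (-0.671), Slc25a39 (-0.919), Slc25a46 (0.963), Slc25a51 (1.18) and Slc25a53 (-1.64). Slc25a39 ranged from -0.919 to 0.525 with an array left out. Causes were not tested, except that these last settings read other probe sets. Arrays share only a number across the doses (deviations correlated at 0.0172 and 0.0353 in the 2 pairs). With that number as a block 12 carriers were higher and 16 lower, and Slc25a15, Slc25a29 and Slc25a42 were no longer called. Without an H-LY29 array the lone one is assumed to vary like the L-LY29 arrays. The floor changed no carrier's call, and without the trend 11 were higher and 18 lower. The 2 H-LY29 arrays limit every test here, and background correction was not redone, since scanner files were not used here.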
